A study of Mus musculus with 6 samples.

Results

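Basement membranes and the integrins that hold cells to them were followed in 47 of the 17189 genes of the deposited count table. The genes were chosen by name. They are the laminin chains, the collagen IV chains, the nidogens Nid1 and Nid2, perlecan (Hspg2), agrin (Agrn), fibronectin (Fn1), nephronectin (Npnt), and the integrin alpha and beta subunits listed in the table. RNA was sequenced from cells of the ureteric bud lineage of mouse embryos at E16.5, isolated by fluorescence-activated sorting. The 3 control libraries were heterozygous for a floxed Ash2l allele (Ash2l F/+) on a background with the Hoxb7Cre-GFP transgene, and the 3 conditional knockout (cKO) libraries had the transgene with both alleles floxed (Ash2l F/F). Both groups therefore express Cre and GFP, under the Hoxb7 promoter, which is active in the Wolffian duct and ureteric bud, and the controls keep 1 allele that Cre cannot remove. ASH2L is a core subunit of the enzyme complexes that place the lysine methylation of histone H3 found at active promoters. The series is about its part in ureteric bud branching.

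A basement membrane is a thin sheet of matrix under an epithelium. Laminins, each a trimer of an alpha, a beta and a gamma chain, form a network on the cell surface, collagen IV forms a crosslinked network, and nidogens and perlecan join them. Integrins are heterodimers of an alpha and a beta subunit that bind these proteins outside the cell and the cytoskeleton inside it. In the developing kidney the ureteric bud is wrapped in such a membrane, and nephronectin made by the bud is a ligand of integrin alpha 8 beta 1 on the surrounding mesenchyme. Itga3 and Itga6 encode alpha subunits of laminin receptors, and Itga5 encodes the alpha subunit of the classical fibronectin receptor.

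Sequences upstream of 3 start sites are shown because ASH2L-containing complexes act at promoters, and because these genes stand for a member that rose and for the receptor and the ligand with low cKO values. Each is the 250 bases before the annotated start in RefSeq on build GRCm38.p6, read on the strand of the gene, with CG dinucleotides in capitals. Itga3 lies on chromosome 11 (chr11:95076715-95076964, minus strand), Itga5 on chromosome 15 (chr15:103366792-103367041, minus strand) and Npnt on chromosome 3 (chr3:132950292-132950541, minus strand).
Itga3: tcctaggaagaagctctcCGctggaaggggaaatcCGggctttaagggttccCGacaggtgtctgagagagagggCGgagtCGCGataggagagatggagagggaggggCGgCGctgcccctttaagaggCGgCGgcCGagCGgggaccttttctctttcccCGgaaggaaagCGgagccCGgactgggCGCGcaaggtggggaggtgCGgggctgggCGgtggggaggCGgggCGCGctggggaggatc
Itga5: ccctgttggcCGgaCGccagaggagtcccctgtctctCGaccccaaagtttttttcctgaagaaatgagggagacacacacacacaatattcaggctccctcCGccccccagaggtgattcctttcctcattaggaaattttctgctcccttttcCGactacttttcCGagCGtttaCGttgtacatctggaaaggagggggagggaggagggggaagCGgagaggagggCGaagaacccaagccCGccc
Npnt: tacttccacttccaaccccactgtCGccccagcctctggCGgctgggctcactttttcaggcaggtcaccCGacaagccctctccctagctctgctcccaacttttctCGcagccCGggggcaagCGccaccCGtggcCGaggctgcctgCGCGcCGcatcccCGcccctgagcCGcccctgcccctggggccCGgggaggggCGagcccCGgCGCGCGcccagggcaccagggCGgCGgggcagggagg

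The Itga3 sequence holds 22 CG dinucleotides, and 14.6% of 27025 such windows over all genes hold at least as many. Npnt has 21 (16.1% of windows hold at least as many) and Itga5 has 11 (36%). CG reads the same on both strands. Each gene was given the window of its most upstream listed start, and the windows of all genes were not matched to the set by type of gene. Over the 31 of 47 genes with a window in the table, the median was 12, with a range of 0 to 35, against a median of 6 over all genes. These counts describe the letters only. No binding or histone mark was measured in the files used here.

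Totals were 9620235 to 10538314 counts per library. Ash2l had 1624 to 1933 counts in the controls and 214 to 451 in cKO (log2 fold change -2.43, SE 0.284, edgeR adjusted p = 0.00786), and the groups did not overlap. The library of cKO replicate 3 stood apart: 1453 of 11738 genes (12.4%) that exceeded 10 counts in all 5 other libraries were at 0 in it, against at most 3 such genes for any other library. Of 31 genes of the basement membrane and integrin set with such counts elsewhere, 7 were at 0 in cKO replicate 3 (22.6%), namely Col4a5, Col4a6, Itga2, Itga5, Itga9, Itgb6 and Itgb8, and 21 of all 47 were at 0 there. Counts of called genes are therefore given with and without that library. Separate embryos, litters or pools are not recorded for the replicates, and the p-values speak only of the spread among these 6 libraries. Triplets of counts below are in the order of replicates 1, 2 and 3. The sorted cells carried ureteric markers, whose summed level was 10902 to 12240 CPM in controls and 6632 to 7560 CPM in cKO. CPM are counts scaled to a common library size. In that list of 15 genes, 5 fell, where 3.59% of all tested genes fell. These were Wnt11, Calb1, Epcam, Gata3 and Hoxb7 (for Hoxb7, log2 fold change -1.30, edgeR adjusted p = 0.00784, or 0.0529 without control replicate 3). The number was 7 without cKO replicate 3, with Ret and Cdh1 added, where 14.9% of all tested genes fell. In bulk RNA, fewer cells of a type and less RNA per cell cannot be told apart. Y-linked Ddx3y had 392 to 1044 counts in the controls and 0 in each cKO library, while Eif2s3y, also Y-linked, had 504 counts in cKO replicate 3. The sex of the embryos and the genotype therefore cannot be told apart for any gene, X-linked Col4a5 and Col4a6 among them.

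Across the set, Lama4, Nid2 and Itga3 rose in cKO, by log2 fold changes of 2.34, 1.63 and 0.57. These are a laminin alpha chain, a nidogen and a laminin-binding integrin subunit. No member was called in the fits that left out control replicate 1, 2 or 3 or cKO replicate 2. Of the 47 genes 38 had enough counts for the test with 6 libraries. The 3 that rose are 7.89% of the tested genes, and 3.52% of all genes tested rose. Of the 38, 0 fell by edgeR (2 negative changes had an unadjusted p under 0.05, DESeq2 called 1 and limma-voom 2), and 3.59% of all genes tested fell. The median log2 fold change was 0.20 with 20 positive and 18 negative values, beside -0.04 over all tested genes. In 6 members every cKO library was above every control library (15.8%, and 16.7% of all tested genes), and in 6 every cKO library was below (15.8%, and 20.7% of all).

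Without cKO replicate 3, edgeR tested 42 of the genes and called 14. With the other 5 libraries 10 rose (23.8%, and 13.7% of all genes rose), and 4 fell (9.52%, and 14.9% of all fell). The median was 0.39, beside 0.01 over all genes. All 3 genes called with 6 libraries were among the 14. Of the 11 called only without that library, 5 were at 0 in it, and 5 had groups that did not overlap with 6 libraries either. The plot of fold changes shows both fits gene by gene.

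**Figure D1:**
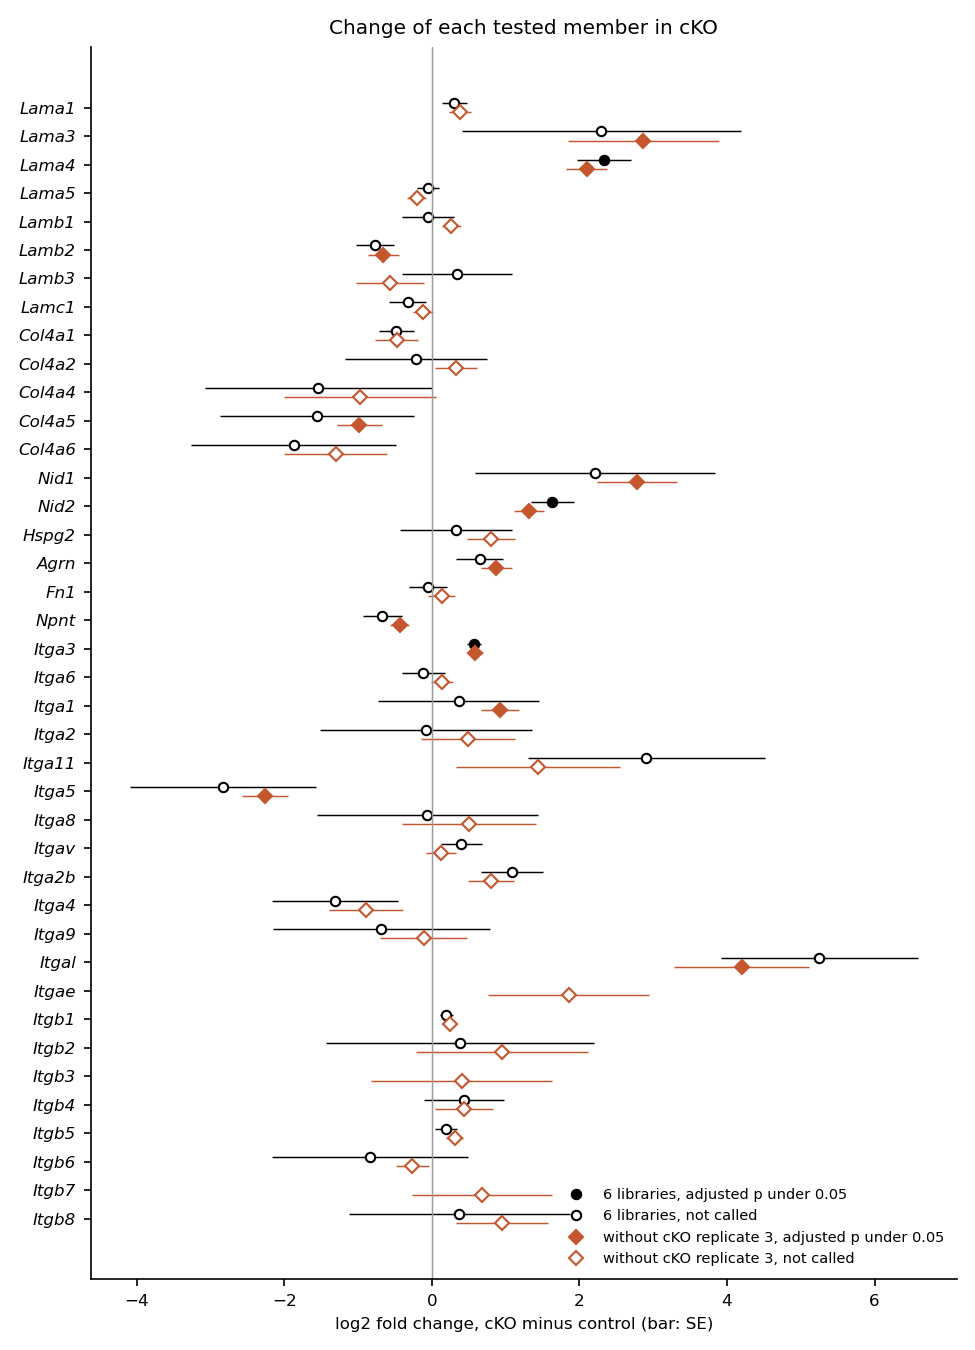
Log2 fold change of cKO against control for tested genes that had counts in the controls, with bars of 1 SE. Black circles are the fit of 6 libraries and orange diamonds the fit without cKO replicate 3, with filled symbols for an adjusted p under 0.05. Lama4 (2.34), Nid2 (1.63) and Itga3 (0.57) are filled in both, and bars of the genes at 0 in cKO replicate 3 are much shorter without it.

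Among the laminin alpha chains, Lama4 (Entrez Gene 16775), a chain known from vessel and stromal basement membranes, rose. Its counts were 132, 120 and 61 in the controls and 423, 434 and 662 in cKO. All cKO libraries were above all controls. Its level went from 10.1 ± 3.68 CPM to 51.1 ± 12.9 CPM (SD, n = 3 each), with a log2 fold change of 2.34 (SE 0.369, edgeR adjusted p = 0.0175). Leaving out control replicate 1, 2 or 3 or cKO replicate 2 ended the call, with adjusted p between 0.0616 and 0.0811, and the change was then 2.06 to 2.55. Markers of endothelium and of stroma stand beside this value. The endothelial list summed to 59.95 to 71.7 CPM in controls and 30.2 to 59.1 CPM in cKO, and of its 4 tested genes Egfl7 fell. Egfl7 fell and Tek rose among 5 tested without cKO replicate 3. Over all tested genes, 3.52% rose and 3.59% fell with 6 libraries, and 13.7% rose and 14.9% fell without cKO replicate 3. The list for stroma and smooth muscle summed to 21.6 to 35.9 CPM in controls and 84.5 to 142 CPM in cKO. Of its 9 tested genes 2, the smooth muscle genes Tagln and Acta2, rose, as they did without cKO replicate 3. The other 7 were not called with 6 libraries, and the median log2 fold change of the 9 was 0.24. The Egfl7 call did not survive the removal of control replicate 3 (adjusted p = 0.0582), nor did those of Tagln and Acta2 that of control replicate 1 (0.0645 and 0.0827). Their part in the Lama4 result was not tested.

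The epithelial alpha chains Lama1 and Lama5 did not pass the edgeR test with or without cKO replicate 3. Lama1, the chain of early embryonic basement membranes, had 757, 638 and 607 counts in the controls and 766, 905 and 699 in cKO, and the groups overlapped (log2 fold change 0.30, SE 0.168, edgeR adjusted p = 0.347). Without cKO replicate 3 the cKO values of Lama1 lay above every control (0.38, edgeR adjusted p = 0.0729). Limma-voom with library weights called Lama1 with 6 libraries (adjusted p = 0.0456). Lama5, the main alpha chain of mature epithelial basement membranes, had 869, 908 and 827 counts in the controls and 709, 737 and 971 in cKO, with overlapping groups (-0.05, SE 0.153, edgeR adjusted p = 0.889). Without cKO replicate 3 its cKO values lay below every control (-0.20, edgeR adjusted p = 0.266). Lama3, a chain of the laminin that anchors skin epithelium, had 3, 12 and 0 counts in the controls and 37, 34 and 0 in cKO. With 6 libraries its change was 2.30 (SE 1.89, edgeR adjusted p = 0.546), and without cKO replicate 3 it rose by 2.87 (SE 1.02, adjusted p = 0.0498). Lama2, the muscle chain, had at most 17 counts and was not tested.

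On the FPKM scale, which allows genes to be compared because it is per length, Lama1 and Lama5 made up most of the laminin alpha total in controls. The share of Lama5 was 42.4%, 47.1% and 49.3% in the control replicates and 28.0%, 27.0% and 31.0% in the cKO replicates, so that every cKO library was below every control. The means were 46.3% ± 3.49 and 28.7% ± 2.09 (SD, n = 3 each), a difference of -17.6 percentage points with an exact two-sided permutation p of 0.1, the smallest that 3 against 3 libraries allow. Lama4 held 10.8% ± 3.12 of the same total in controls and 35.7% ± 5.62 in cKO, while Lama1 held 42.6% ± 2.45 and 34.4% ± 6.74. The FPKM of Lama5 itself was 6.88 ± 0.318 in controls and 6.84 ± 1.20 in cKO, beside 1.65 ± 0.608 and 8.57 ± 2.25 for Lama4.

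None of the laminin beta chains passed the test with 6 libraries. Lamb1, the common beta chain, had 3265, 4171 and 3494 counts in the controls and 4728, 3645 and 1689 in cKO, a spread within cKO that covers the controls (log2 fold change -0.05, SE 0.349, edgeR adjusted p = 0.954). Lamb2, a beta chain of mature membranes such as that of the glomerulus, had 532, 988 and 720 counts in the controls and 472, 434 and 350 in cKO. Every cKO library was below every control for Lamb2, but the change of -0.77 missed the threshold (SE 0.255, adjusted p = 0.130), and without cKO replicate 3 the gene fell by 0.66 in log2 units (adjusted p = 0.0349). Lamb3, the beta chain that pairs with Lama3, had 54 to 114 counts in the controls and 31 to 197 in cKO. Lamb1 made up 80.7% ± 2.61 of beta chain FPKM in controls and 83.3% ± 9.06 in cKO (difference 2.56 percentage points, exact two-sided permutation p = 0.7). The cKO shares were 88.9%, 88.1% and 72.8%, and without cKO replicate 3 the difference was 7.78 points with no overlap (exact p = 0.1, the smallest that 3 against 2 libraries allow).

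Of the gamma chains, Lamc1, the common gamma chain, had 1889, 2675 and 2182 counts in the controls and 1798, 2174 and 1160 in cKO, with overlapping groups (log2 fold change -0.33, SE 0.246, edgeR adjusted p = 0.498). Lamc3 was at 0 in all controls and had 19, 31 and 0 counts in cKO. It was called only without cKO replicate 3.

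**Figure D2:**
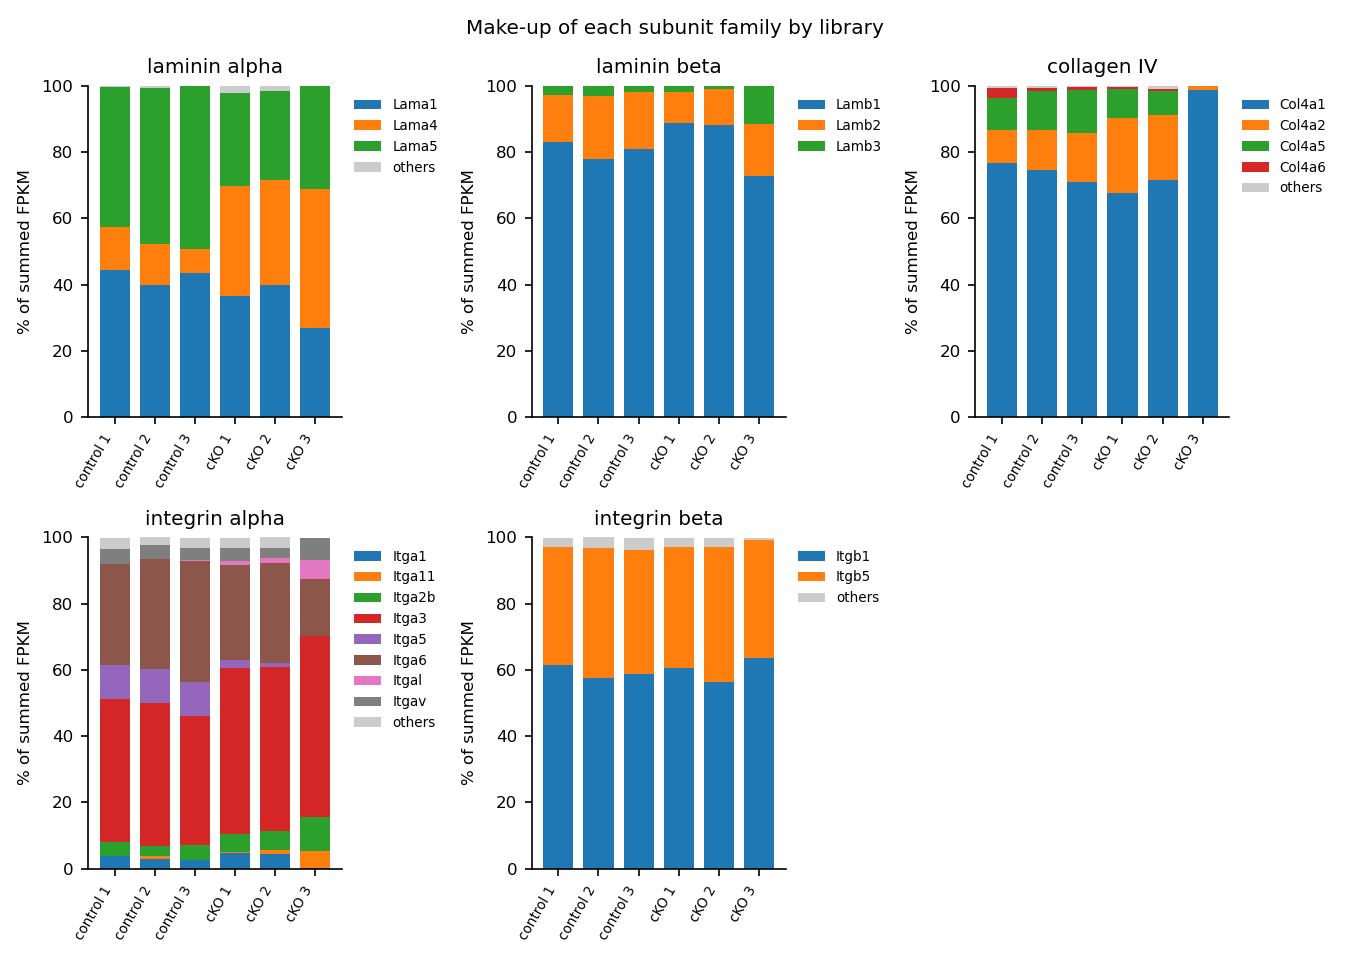
Make-up of 5 subunit families in each library, as percent of the summed FPKM of the family. The Lama5 segment is shorter in the cKO bars (27.0% to 31.0%) than in the control bars (42.4% to 49.3%), the Itga5 segment nearly vanishes in cKO, and the Col4a5 segment is missing in cKO replicate 3.

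The collagen IV genes gave negative changes in all 5 tested genes with 6 libraries, and the lowest edgeR adjusted p was 0.306. Col4a1, with Col4a2 the ubiquitous collagen IV chain, had 1456, 2570 and 1973 counts in the controls and 1058, 1696 and 1366 in cKO, and the groups overlapped (log2 fold change -0.48, SE 0.243, adjusted p = 0.306). Col4a2 had 189, 400 and 402 counts in the controls and 344, 453 and 16 in cKO. Its low value lies in cKO replicate 3 alone, and the change was -0.21 with all libraries (SE 0.962, adjusted p = 0.928) and 0.33 without that library (adjusted p = 0.421). A listed start of Col4a1 and a listed start of Col4a2 lie 21 bases apart on opposite strands in the RefSeq annotation of GRCm38.p6. The counts of Col4a1 and Col4a2 in cKO replicate 3 were 1366 and 16.

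Col4a5, a chain of the specialised collagen IV of tubule and glomerular basement membranes, had 179, 402 and 360 counts in the controls and 136, 168 and 0 in cKO. All cKO libraries were below all controls. The change was -1.56 with 6 libraries (SE 1.32, edgeR adjusted p = 0.560), and without cKO replicate 3 the gene fell by 0.98 in log2 units (SE 0.308, adjusted p = 0.0302). Its neighbour Col4a6 had 59, 27 and 26 counts in the controls and 11, 18 and 0 in cKO, again with no overlap (-1.87, adjusted p = 0.493). Together Col4a3 to Col4a6 took 13.1%, 13.3% and 14.2% of collagen IV FPKM in the controls and 9.81%, 8.75% and 0% in cKO. The difference of the means was -7.37 percentage points with 6 libraries and -4.27 without cKO replicate 3 (exact two-sided permutation p = 0.1 in both, the smallest possible). Col4a4 had at most 37 counts, and Col4a3, with at most 16, was not tested.

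Both nidogens, which bridge the laminin and collagen networks, had positive changes. Nid2 (Entrez Gene 18074) rose, with counts of 160, 172 and 170 in the controls and 347, 452 and 698 in cKO. The control values lie close together and every cKO library was above them. The level went from 16.2 ± 0.470 CPM to 50.3 ± 17.5 CPM (SD, n = 3 each), with a log2 fold change of 1.63 (SE 0.292, edgeR adjusted p = 0.0249). The call was lost without control replicate 1, 2 or 3 or cKO replicate 2, where adjusted p lay between 0.0829 and 0.122. Nid2 overlaps Rtraf in the RefSeq annotation, whose own change was 0.22 (adjusted p = 0.318). Nid1 had 8, 16 and 28 counts in the controls and 162, 68 and 0 in cKO. It was above the controls in cKO replicates 1 and 2 and at 0 in replicate 3, so its change of 2.21 with 6 libraries had an SE of 1.62 (adjusted p = 0.490). Without replicate 3 it rose by 2.78 (SE 0.544, adjusted p = 0.0019).

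The heparan sulfate proteoglycans showed the same division between cKO libraries. Agrin, which binds laminin and dystroglycan, had 573, 941 and 588 counts in the controls and 1026, 1431 and 688 in cKO. The groups overlapped through cKO replicate 3, and the change was 0.65 (SE 0.314, edgeR adjusted p = 0.281), or 0.87 without that library, where the gene rose (adjusted p = 0.0105). Perlecan (Hspg2) had 69, 166 and 129 counts in the controls and 232, 172 and 29 in cKO (0.32, SE 0.760, adjusted p = 0.849).

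Nephronectin was the most abundant gene per length of the matrix genes in controls, at 141 ± 25.9 FPKM, and was 90.7 ± 29.1 FPKM in cKO (SD, n = 3 each). Npnt (Entrez Gene 114249) had 6168, 8614 and 6416 counts in the controls and 4900, 5110 and 2694 in cKO. Every cKO library was below every control. The change of -0.67 did not pass the test with 6 libraries (SE 0.262, edgeR adjusted p = 0.187). DESeq2 called it (adjusted p = 0.0452), and in the edgeR fit without cKO replicate 3 it fell by 0.43 in log2 units (SE 0.130, adjusted p = 0.0229). Fibronectin, the ligand of integrin alpha 5 beta 1, had 377, 447 and 541 counts in the controls and 451, 507 and 307 in cKO, and the groups overlapped (-0.05, SE 0.258, adjusted p = 0.942).

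**Figure D3:**
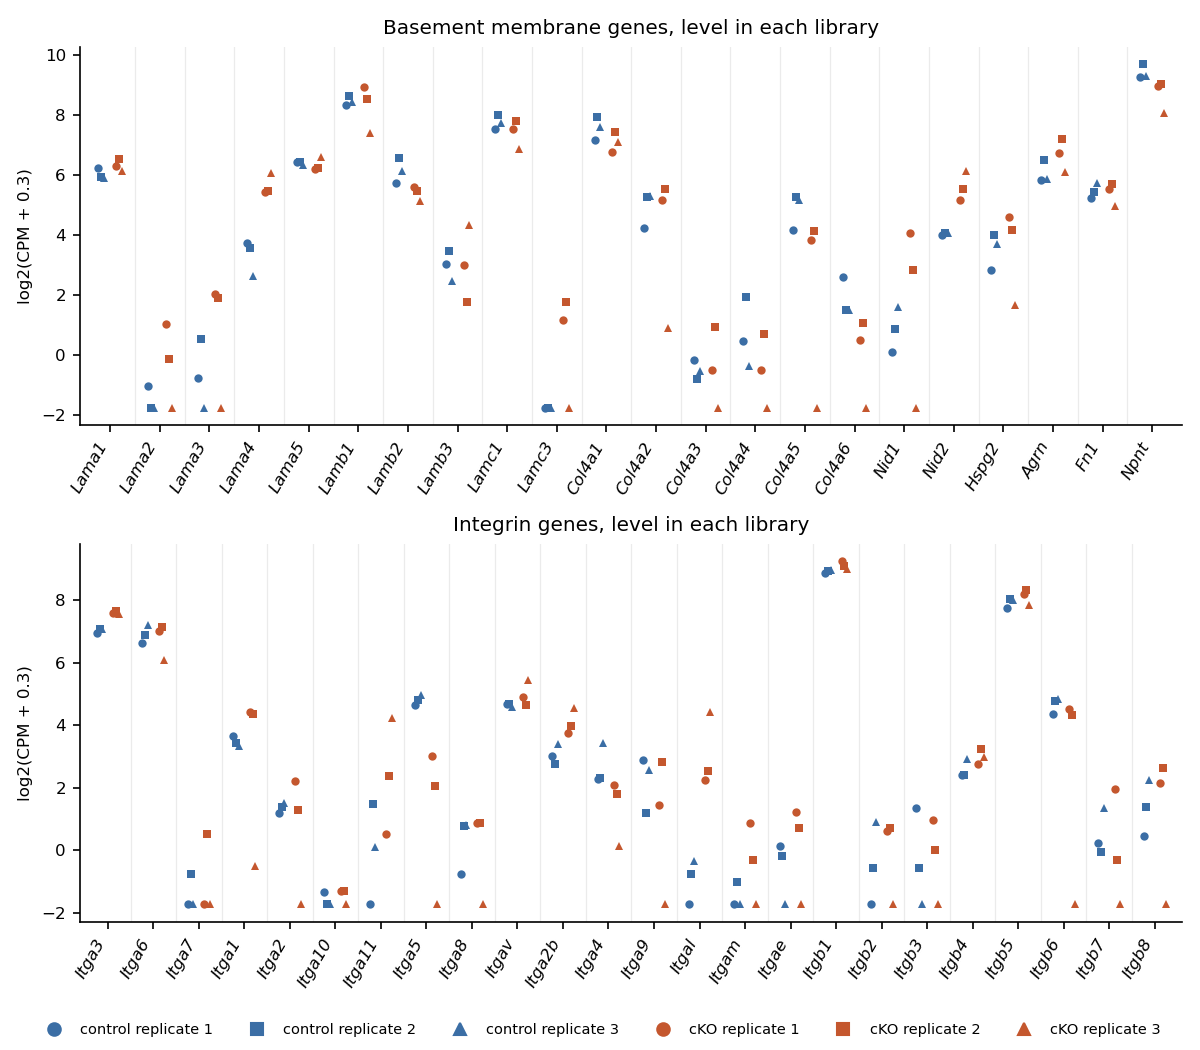
Level of the genes in each library, as log2(CPM + 0.3), with matrix genes above and integrins below. Symbols mark the replicate and colours the group, and points at the bottom of a panel are at 0 counts. Lama4, Nid2 and Itga3 have all cKO points above the control points, Npnt and Itga5 have them below, and cKO replicate 3 (orange triangles) lies at 0 for 21 genes.

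Of the laminin-binding integrin subunits, Itga3 (Entrez Gene 16400) rose. Integrin alpha 3 beta 1 is a receptor of laminins, among them those that contain the alpha 5 chain. Itga3 counts were 1245, 1416 and 1383 in the controls and 1901, 1968 and 1885 in cKO. The values are tight in both groups and do not overlap, and cKO replicate 3 was as high as the others. FPKM went from 24.5 ± 1.43 to 37.3 ± 1.33 (SD, n = 3 each), with a log2 fold change of 0.57 (SE 0.0972, edgeR adjusted p = 0.0210). Leaving out any library other than cKO replicate 3 moved the adjusted p to between 0.0665 and 0.102, with changes of 0.52 to 0.59. Without cKO replicate 3 the change was 0.58 (adjusted p = 0.00115).

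Itga6, the other main laminin-binding subunit, had 1013, 1251 and 1503 counts in the controls and 1254, 1389 and 685 in cKO, with overlapping groups (log2 fold change -0.11, SE 0.288, edgeR adjusted p = 0.860). Its share of the FPKM of Itga3, Itga6 and Itga7 was 41.4%, 43.4% and 48.5% in the controls and 36.4%, 37.9% and 24.0% in cKO. All cKO shares were below all control shares, with a difference of -11.7 percentage points (exact two-sided permutation p = 0.1, the smallest possible), and of -7.28 without cKO replicate 3 (p = 0.2). The total includes Itga3, which rose, so this share can fall without a change in Itga6. The FPKM of Itga6 itself was 19.8 ± 3.73 in controls and 18.8 ± 6.44 in cKO (SD, n = 3 each). Itga7, the muscle subunit, had at most 11 counts and was not tested.

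Of the subunits that read the RGD motif of fibronectin and related ligands, Itga5 (Entrez Gene 16402) had the largest difference. It had 253, 293 and 316 counts in the controls and 77, 38 and 0 in cKO. The groups did not overlap, and cKO replicates 1 and 2 were low as well as replicate 3. The change was -2.83 with 6 libraries (SE 1.26, edgeR adjusted p = 0.243). With 6 libraries limma-voom with library weights called it (adjusted p = 0.00696), as did limma on log2(FPKM + 1) (0.0187 with a filter and 0.0403 without). DESeq2 (adjusted p = 0.0659) and limma on log2(FPKM + 0.1) (0.0935) did not. In the edgeR fit without cKO replicate 3, Itga5 fell by 2.26 in log2 units (SE 0.315, adjusted p = 0.000163). Per length, Itga5 was 10.4% ± 0.0876 of integrin alpha FPKM in controls and 1.17% ± 1.20 in cKO (SD, n = 3 each). Itgav, the shared vitronectin-receptor subunit, had 242 to 264 counts in the controls and 245 to 439 in cKO (0.40, SE 0.273, adjusted p = 0.449).

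Itga8, the mesenchymal receptor subunit for nephronectin, had 3, 15 and 15 counts in the controls and 15, 15 and 0 in cKO, so it was near the floor in these sorted cells (log2 fold change -0.06, SE 1.5, edgeR adjusted p = 0.987). A floor of 3 counts corresponds to 0.285 to 0.307 CPM. Itga2b, the platelet fibrinogen receptor subunit, had 79, 68 and 104 counts in the controls and 129, 152 and 231 in cKO. Every cKO library was above every control, and the change of 1.08 did not pass the test (SE 0.420, adjusted p = 0.185; 0.81 and 0.0693 without cKO replicate 3). Beside it, the platelet and megakaryocyte markers summed to 0 to 9.29 CPM in controls and 169 to 253 CPM in cKO. With 6 libraries only Ppbp of that list could be tested. Ppbp rose, from 0 to 73 counts in the controls to 1668 to 2437 in cKO, a call lost without control replicate 2 (edgeR adjusted p = 0.101). The markers Gp9, Gp1ba, Gp1bb and Treml1 had at most 5 counts in any library, and Pf4 had at most 23. Their part in the Itga2b values was not tested.

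The leukocyte subunit Itgal, which pairs with Itgb2, had 0, 3 and 5 counts in the controls and 44, 54 and 210 in cKO. All cKO libraries were above all controls. The change was 5.25 (SE 1.33, edgeR adjusted p = 0.0660), and 4.20 without cKO replicate 3, where it rose (adjusted p = 0.00388). DESeq2 called it with 6 libraries too (adjusted p = 9.26e-05). Its partner Itgb2 had 0 to 16 counts in the controls and 0 to 13 in cKO. Leukocyte markers summed to 60.7 to 118 CPM in controls and 72.9 to 140 CPM in cKO. Of 11 tested markers the lowest edgeR adjusted p was 0.124 (Cx3cr1). Without cKO replicate 3 Coro1a fell among 12 tested, where 14.9% of all tested genes fell. Ptprc, the common leukocyte antigen, had 410 to 530 counts in the controls and 351 to 468 in cKO. Their part in the Itgal values was not tested.

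The collagen-binding subunits Itga1, Itga2 and Itga11 had changes of 0.36, -0.08 and 2.90 with 6 libraries, and edgeR adjusted p was at least 0.346. Itga1 had 124, 109 and 101 counts in the controls and 207, 199 and 4 in cKO, so that replicate 3 lay far below the others, and without it the gene rose by 0.93 (adjusted p = 0.0153). Itga11 had 0, 26 and 8 counts in the controls and 11, 48 and 187 in cKO, where replicate 3 was the highest, and its change was 1.44 without that library (adjusted p = 0.368). Itga1 overlaps Pelo in the annotation, which had at most 45 counts. Itga4 and Itga9, which pair with Itgb1 and bind fibronectin splice forms and other ligands, had changes of -1.31 and -0.69 (adjusted p = 0.429 and 0.836). Itga10 had at most 1 count, Itgam at most 15 and Itgae at most 20.

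Among the beta subunits the lowest edgeR adjusted p was 0.267 with 6 libraries (Itgb1) and 0.0525 without cKO replicate 3 (Itgb5). Itgb1 (Entrez Gene 16412), the partner of most matrix-binding alpha subunits, was the most abundant integrin per length, with 113 ± 3.56 FPKM in controls and 134 ± 9.80 in cKO (SD, n = 3 each). It had 4750, 5090 and 5104 counts in the controls and 5962, 5349 and 5130 in cKO, and every cKO library was above every control by a small margin. The change was 0.20 (SE 0.0937, edgeR adjusted p = 0.267), and of the tests run with 6 libraries limma-voom with library weights called it (adjusted p = 0.0494). Itgb5, a partner of Itgav, had 2205, 2772 and 2612 counts in the controls and 2874, 3132 and 2314 in cKO (0.20, SE 0.147, adjusted p = 0.501). The 2 genes made up nearly all beta subunit FPKM, and the share of Itgb1 was 59.3% ± 1.99 in controls and 60.2% ± 3.74 in cKO (exact two-sided permutation p = 0.8).

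Itgb4, the hemidesmosome subunit that pairs with Itga6, was low in these cells, with 51, 52 and 75 counts in the controls and 64, 90 and 77 in cKO and overlapping groups (log2 fold change 0.43, SE 0.539, edgeR adjusted p = 0.708). Itgb6 and Itgb8, partners of Itgav in the activation of latent TGF-beta, were both at 0 in cKO replicate 3. Itgb6 had 206, 283 and 287 counts in the controls and 219 and 194 in cKO replicates 1 and 2 (-0.84, adjusted p = 0.772), and Itgb8 had 11 to 45 in the controls and 41 and 58 in those libraries. Itgb3 and Itgb7 had at most 23 and 35 counts and were not tested with 6 libraries.

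Genes that work with these proteins were taken from 6 lists, which were chosen with earlier results of these data known. Shares of these lists set beside those of all genes are therefore descriptive and do not test for enrichment. Of the basement membrane partners, 20 of 26 were tested and 5 rose with 6 libraries, beside 3.52% of all tested genes. Without cKO replicate 3, 9 of 23 rose and 2 fell, where 13.7% of all tested genes rose and 14.9% fell. Sparc, a collagen-binding matricellular protein, had 1252 to 1707 counts in the controls and 4009 to 5162 in cKO (log2 fold change 1.73, SE 0.155, edgeR adjusted p = 0.00567). Tinagl1, a secreted basement membrane protein, had 1115 to 1292 and 3776 to 5323 counts (2.00, SE 0.146, adjusted p = 0.00409). Both stayed called when any 1 library was left out. Ccn2 (3.40, adjusted p = 0.0057) rose as well and stayed called in the same way. Tinag (3.60, adjusted p = 0.0176) and Hmcn2 (3.84, adjusted p = 0.0452) rose too, and lost the call in 5 of 6 such fits, with adjusted p up to 0.10 without control replicate 2 and 0.179 without control replicate 3. The median of this list was 0.15. Beside these values stand the sums for stroma and smooth muscle given above, with their limits. The sums for nephron epithelium and podocytes were 16.4 to 23.3 CPM in controls and 47.5 to 82.7 CPM in cKO. Those for nephron progenitors were 10.9 to 14.6 and 19.7 to 24.0 CPM (lowest edgeR adjusted p = 0.111, Cited1). Their part in these results was not tested.

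Of 10 tested genes for other integrin ligands, 4 rose (3.52% of all genes rose). Mfge8, an RGD protein that binds Itgav integrins, had 1076 to 1160 counts in the controls and 2224 to 2969 in cKO (log2 fold change 1.26, SE 0.123, edgeR adjusted p = 0.0057). Thbs1 (2.06, adjusted p = 0.0283), Icam1, the ligand of the Itgal receptor (1.84, adjusted p = 0.0274), and Madcam1, a ligand of the Itga4 receptor (4.31, adjusted p = 0.0389), were the others. Icam1 had 70 to 149 counts in the controls and 333 to 422 in cKO. Mfge8 stayed called when any 1 library was left out, while Thbs1, Icam1 and Madcam1 were called in 1 of the 6 such fits, that without cKO replicate 3, and reached adjusted p of 0.124, 0.133 and 0.183 without control replicate 3. With cKO replicate 3 left out, 7 of 13 tested rose (13.7% of all genes).

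Inside the cell, 3 of 32 tested adaptors and kinases of integrin adhesions rose and 1 fell, beside 3.52% and 3.59% of all tested genes. Fermt1 and Fermt2 encode kindlins, which activate integrins by binding the beta subunit tail. Fermt1 had 374, 386 and 454 counts in the controls and 70, 77 and 22 in cKO, and fell (log2 fold change -2.78, SE 0.502, edgeR adjusted p = 0.0259). Fermt2 had 502, 617 and 500 counts in the controls and 880, 1008 and 764 in cKO, and rose (0.77, SE 0.167, adjusted p = 0.0428). The groups did not overlap for either gene. Zyx, a focal adhesion protein (1.11, adjusted p = 0.0110), and Itgb1bp1, which binds the Itgb1 tail (0.84, adjusted p = 0.0381), rose. Zyx was called in 3 of the 6 fits that leave out 1 library and the other 3 genes only in that without cKO replicate 3, and without control replicate 3 adjusted p was 0.0660 to 0.189. In the fit without cKO replicate 3, 8 of 33 rose and 3 fell, where 13.7% of all genes rose and 14.9% fell, so the share that fell was not above that over all genes in either fit.

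Of 7 tested tetraspanins and hemidesmosome partners, 2 fell (3.59% of all genes fell). The same 2 of 8 fell without cKO replicate 3 (14.9% of all genes), and Col17a1 rose. Cd9 had 4032 to 4215 counts in the controls and 2576 to 2779 in cKO (log2 fold change -0.57, SE 0.0825, edgeR adjusted p = 0.0133). Cd81 had 2143 to 2426 counts in the controls and 197, 246 and 654 in cKO (-2.62, SE 0.445, adjusted p = 0.0210). Cd151, the tetraspanin that binds Itga3 and Itga6 integrins, had 191 to 259 and 154 to 242 counts (-0.21, adjusted p = 0.750). Without control replicate 3 the calls of Cd9 and Cd81 were lost (adjusted p = 0.0839 and 0.0948).

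Among 15 tested genes for collagen IV processing and crosslinking, 1 passed the test with 6 libraries. Hsp90b1, a chaperone of the endoplasmic reticulum, had 11881 to 12993 counts in the controls and 8109 to 9202 in cKO and fell (log2 fold change -0.45, SE 0.0894, edgeR adjusted p = 0.0341). Without control replicate 3 that call was lost (adjusted p = 0.145). Of 21 tested non-integrin receptors of basement membranes, Gpc3, a cell-surface heparan sulfate proteoglycan, rose, with 6861 to 8254 counts in the controls and 13041 to 17929 in cKO (1.03, SE 0.142, adjusted p = 0.0115, or 0.0666 without control replicate 1). Without cKO replicate 3, 4 of 16 processing genes rose and 4 fell, and 3 of 22 receptors rose and 5 fell, where 13.7% of all tested genes rose and 14.9% fell. With 6 libraries those shares were 3.52% and 3.59%.

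**Figure D4:**
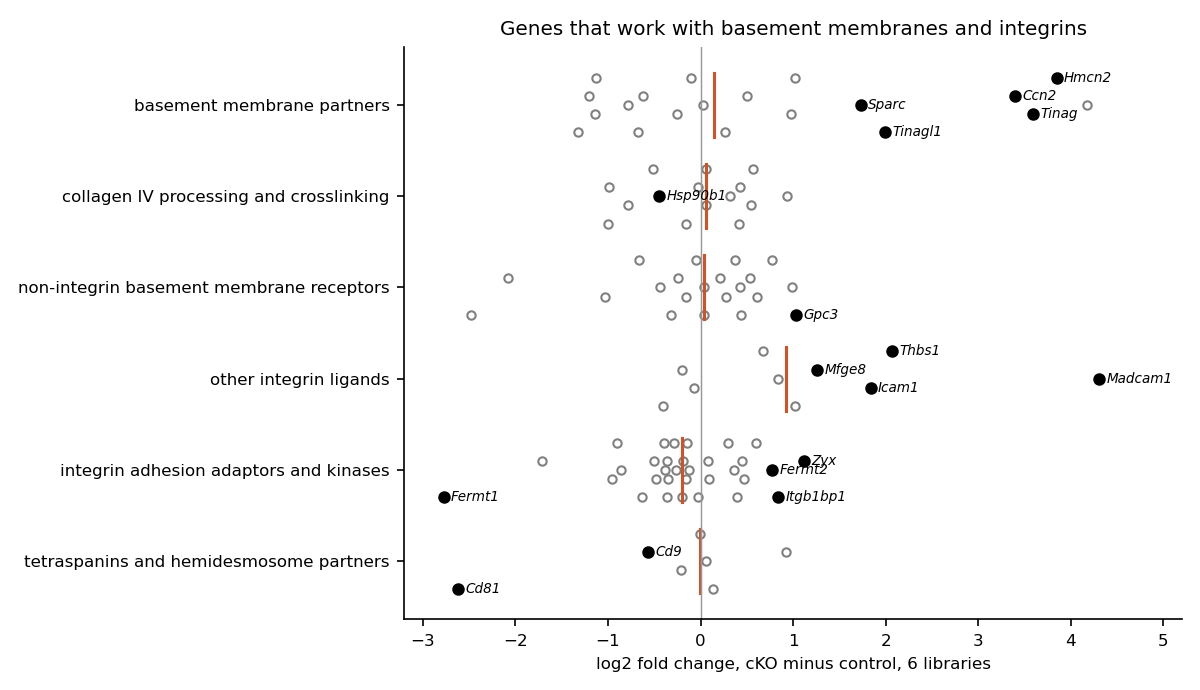
Log2 fold change in cKO, 6 libraries, of each tested gene in 6 lists of genes that work with basement membranes and integrins. Filled points have an adjusted p under 0.05 and are named, and the orange bar is the median of the list. Other integrin ligands have a median of 0.93, and the other 5 medians lie between -0.20 and 0.15.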

How the data were processed

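Per the labels, total RNA of sorted cells was made into stranded mRNA libraries. The authors deposited raw read counts per gene and FPKM values for the same 6 libraries. The FPKM values are the deposited counts rescaled per gene and library (largest log2 deviation 3.18e-07), so they add no independent measurement. Per the submitters' processing notes the tools were HISAT2, Cufflinks, HTSeq and DESeq with the mouse build GRCm39, and neither versions nor roles are listed. Neither labels nor headers state whether reads were counted by strand.

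Counts were tested with edgeR 4.0.16 in R 4.3.3 (filterByExpr, TMM scaling, robust quasi-likelihood F-test, group as the only term), with Benjamini-Hochberg adjustment over all 13047 genes tested and a call at an adjusted p under 0.05. SE is the log2 fold change divided by the square root of F. The edgeR steps were also run on simulated counts. These held no library with added zeros like those of cKO replicate 3, so that feature was not covered. The alternatives were DESeq2 1.42.0, limma 3.58.1 (voom with library weights, and log2 FPKM with pseudocounts of 1 and 0.1), other scaling and filters, a replicate block, and leaving out each library. Shares of summed FPKM were compared with exact permutation tests. Floors cover counting error only.

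The members and the lists were chosen with earlier results of these data known. Described in full are called members, members with at least 10 CPM whose groups do not overlap, and a set list of main chains and subunits. From the other lists come called genes. Agrn, Itga1, Itgal, Lama3, Lamc3, Col4a6, Hspg2, Itgb5, Itgb6 and other genes named beyond that were chosen after their values were seen. Start regions come from RefSeq on GRCm38.p6, another build than that of the counts, and Lama4 and Nid2 have no entry there. Some genes of the set and the lists enter the counts but are not reported here by name.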

Additional observations from a re-analysis of the deposited data

How the results depend on the processing

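With 6 libraries, 3 members were called up and 0 down. Limma-voom with library weights called 8 up and 2 down, DESeq2 4 up and 1 down, and limma on log2(FPKM + 1), with or without a filter, 3 up and 1 down. Leaving out each library gave 0 to 10 up and 0 to 4 down, with the highest of both without cKO replicate 3. No member was called without control replicate 1, 2 or 3 or cKO replicate 2, and Lama4 and Nid2 stayed called without cKO replicate 1. With the replicate block 0 were called in either direction, and Lama4, Nid2 and Itga3 had edgeR adjusted p of 0.112, 0.0999 and 0.0998. Correlations of the deviations of same-numbered libraries from their group means were -0.02, 0.02 and -0.0015, so no pairing by replicate number was seen. The cKO means include cKO replicate 3 with its many zeros, so these correlations cannot exclude a pairing. Other scalings and filters kept the same 3 genes. Over the log2 fold changes of the tested members and all alternatives, 565 values stayed on the same side of the threshold, 21 gained a call, 16 lost one, 12 moved without one, and none of the called changes reversed. The shares of subunit families moved by less than the spread between replicates under the alternatives tried. Without cKO replicate 3, 8 settings chosen after seeing the data called 12 to 16 members, sharing 10 to 14 with the 14 of the edgeR fit. Genes under about 20 counts, among them Itga8, Lama2 and Itgam, are limited by depth.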
